A study of Mus musculus with 9 samples.

Results

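The 10 genes described here encode myeloid C-type lectin receptors of the mouse, Clec7a, Clec4n, Clec4d, Clec4e, Clec5a, Clec4a1, Clec4a2, Clec4a3, Clec12a and Clec10a, out of 46078 genes measured and 11952 tested. They were chosen by their symbols in the table of expression values, in which 11 rows carry 1 of the 10 symbols because Clec7a has a second row. Messenger RNA was sequenced in 9 libraries, 3 for each of 3 macrophage cultures derived from the inbred mouse strain C57BL/6J. FLM_G were macrophages from livers of fetuses at gestational day 15 to 19, grown with 10% serum and the growth factor GM-CSF (granulocyte-macrophage colony-stimulating factor), given as recombinant mouse protein at 30 ng/ml. FLM_M were macrophages from the same fetal tissue, grown with 20% serum and 30% supernatant of L cells, which secrete M-CSF (macrophage colony-stimulating factor). BMM were macrophages from bone marrow, whose medium and donor age the labels do not give. All 3 cultures had been kept for at least 8 weeks, and RNA was taken 1 day after triplicate wells had received 250000 cells each.

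Growth factor and serum differ together between FLM_G and FLM_M, and tissue, animals and possibly medium differ together between the fetal liver cultures and BMM, so their parts cannot be told apart. The fetal liver cultures also differed from BMM in sex-linked genes. Xist, the RNA of the inactive X chromosome, averaged 48.5 FPKM in FLM_G, 70.9 in FLM_M and 0.00 in BMM, and the Y-linked Eif2s3y was listed at 0 in all FLM_G and FLM_M libraries against 11.0 FPKM in BMM. Nothing in the labels says that the 3 libraries of a culture came from separate cultures or animals, so the spread that p-values rest on is that among these libraries and may be technical. In such bulk samples, fewer cells of a type and less RNA per cell cannot be told apart.

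C-type lectin receptors are surface proteins with which macrophages and dendritic cells bind sugars, glycolipids and other ligands of microbes and of damaged cells. One group activates the cell through the kinase Syk: Dectin-1 (Clec7a) by a signalling motif in its own tail, Dectin-2 (Clec4n), MCL (Clec4d) and Mincle (Clec4e) through the adaptor Fcer1g, and MDL-1 (Clec5a) through the adaptor DAP12, the product of Tyrobp. Downstream of Syk, Card9, Bcl10 and Malt1 form the complex that activates NF-kB. Another group, with DCIR (Clec4a2) and Clec12a as its best-known members, carries an inhibitory motif that recruits the phosphatases Ptpn6 and Ptpn11.

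Of the 10 genes, 9 lie on chromosome 6 and 1, Clec10a, on chromosome 11 (GRCm38). RefSeq promoter sequence (GRCm38.p6) was at hand for 8 of the 10, not for Clec4n and Clec10a. The 250 bases before the transcription start are shown for 4 genes that stand for the patterns described below, namely the highest in FLM_G (Clec7a), the lowest in FLM_G (Clec4a1), the gene with no call in any comparison (Clec4d) and the gene high in both fetal liver cultures (Clec5a). They are written 5′ to 3′ on the strand of the gene, and capitals mark the letters GAGGAA or their reverse complement TTCCTC, a core of the sites bound by the myeloid factor PU.1, and in Clec5a also TGCTGA, a core of MAF sites.
Clec7a: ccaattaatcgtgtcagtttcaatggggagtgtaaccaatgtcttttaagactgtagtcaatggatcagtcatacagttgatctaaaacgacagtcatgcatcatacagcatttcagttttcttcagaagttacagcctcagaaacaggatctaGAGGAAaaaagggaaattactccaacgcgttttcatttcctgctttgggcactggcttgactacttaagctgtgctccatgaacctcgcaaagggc
Clec4a1: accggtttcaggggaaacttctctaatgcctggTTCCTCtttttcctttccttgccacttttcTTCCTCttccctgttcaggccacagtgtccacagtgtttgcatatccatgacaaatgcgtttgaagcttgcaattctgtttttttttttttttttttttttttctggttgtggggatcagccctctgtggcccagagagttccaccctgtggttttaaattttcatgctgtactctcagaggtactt
Clec4d: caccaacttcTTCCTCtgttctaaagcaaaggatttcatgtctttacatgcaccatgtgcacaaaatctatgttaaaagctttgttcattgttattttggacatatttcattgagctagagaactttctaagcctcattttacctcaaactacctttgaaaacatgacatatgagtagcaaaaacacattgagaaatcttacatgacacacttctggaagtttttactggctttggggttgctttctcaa
Clec5a: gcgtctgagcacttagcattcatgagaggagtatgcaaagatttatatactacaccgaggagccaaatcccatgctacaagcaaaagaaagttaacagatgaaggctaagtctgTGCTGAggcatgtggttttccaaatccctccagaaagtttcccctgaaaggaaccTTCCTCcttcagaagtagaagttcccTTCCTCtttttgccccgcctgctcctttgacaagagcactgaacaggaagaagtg
The Clec7a stretch is chr6:129472780-129473029 on the minus strand, the Clec4a1 stretch chr6:122921598-122921847 on the plus strand, the Clec4d stretch chr6:123261857-123262106 on the plus strand and the Clec5a stretch chr6:40585806-40586055 on the minus strand. GAGGAA on either strand was found in 6 of the 8 promoters searched, in all but Clec4a2 and Clec4a3, and in 23.3% of the 32851 RefSeq mouse promoters of the same length. It occurred in genes high in FLM_G (Clec7a), low in FLM_G (Clec4a1, Clec12a) and with no call (Clec4d) alike. The C/EBP letters TTGCNNAA were found in 2 of 8 (Clec4e and Clec12a) and in 9.56% of all promoters, and the MAF letters TGCTGA in 2 of 8 (Clec4a2 and Clec5a) and in 16.1%. The STAT letters TTCNNNGAA were found in Clec4a2, against 7.02% of all promoters, and the AP-1 letters TGANTCA in Clec12a, against 6.75%. For these 2 genes the RefSeq start used lies inside the GENCODE gene. It is 123122690 for Clec4a2, whose GENCODE start is 123106428, and 129350244 for Clec12a, whose GENCODE start is 129342691. A match is a description of these letters and not a site of binding.

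All levels are FPKM (fragments sequenced per kilobase of transcript and per unit of library size), scaled between libraries by TMM factors. Changes are differences of log2(scaled FPKM + 1), which understate changes at low levels, given with their standard error (SE) from a limma fit over all 9 libraries, and a gene was called at a Benjamini-Hochberg adjusted p under 0.05 over all 11952 tested genes. The comparisons FLM_G against BMM, FLM_G against FLM_M and FLM_M against BMM share libraries pairwise and are not independent of each other. Libraries held about 28550000 to 35680000 reads as read from the smallest steps of the FPKM, so that 1 FPKM over 1 kb stood for 28.6 to 35.7 reads. All 7 macrophage markers listed (among them Csf1r, Adgre1, Cd68 and Lyz2) averaged at least 1 FPKM in each culture, but not evenly. In FLM_G, 2 were called higher and 4 lower than in BMM, against 33.8% and 34.1% of all genes. Against FLM_M, 2 were higher and 5 lower in FLM_G, against 35.5% and 35.1% of all genes. Their sum was 26670 to 26959 FPKM in FLM_G, 5743 to 5933 in FLM_M and 7748 to 8167 in BMM. Most of it was Lyz2, which averaged 25600 FPKM in FLM_G, 3652 in FLM_M and 6408 in BMM, so the sum mainly follows that gene. Csf1r, Adgre1, Itgam and Fcgr1 averaged less in FLM_G than in either other culture. The median log2 change of the 7 markers in FLM_G was -1.47 against BMM and -0.94 against FLM_M. No marker of mast cells and basophils, erythroid cells or lymphocytes averaged at least 1 FPKM in any culture. Markers of other cells moved with FLM_G in part. Of 8 neutrophil markers only S100a8 reached that level, at 53.3 FPKM in FLM_G, 11.0 in FLM_M and 1.94 in BMM, and the list summed to 49.7 to 56.7 FPKM in FLM_G, 9.51 to 12.3 in FLM_M and 2.65 to 3.52 in BMM, while Ly6g was listed at 0 in all 9 libraries. Of 7 dendritic cell markers only Clec9a did, in FLM_G, where the list summed to 2.13 to 3.08 FPKM, against at most 0.52 in FLM_M and 0.29 in BMM. Of 6 liver cell markers Trf stood at 127 FPKM in FLM_G, 31.7 in FLM_M and 5.01 in BMM and Afp at 0.91, 2.19 and 1.79 FPKM, with Alb listed at 0 throughout, and of 6 stromal and endothelial markers Cdh5 stood at 4.28, 0.46 and 0.43 FPKM. Their part in the results below was not tested.

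All 10 receptor genes passed the filter of at least 1 FPKM in at least 3 libraries, and none passed it through a single culture. In FLM_G against BMM, 9 of the 10 were called, 5 higher and 4 lower, against 68% of all tested genes called. In FLM_G against FLM_M, 8 were called, 3 higher and 5 lower, against 70.6% of all genes. In FLM_M against BMM, 6 were called, 5 higher and 1 lower, against 44.6% of all genes. The groups did not overlap for 8, 8 and 7 of the 10 genes in the same order of comparisons, against 73.2%, 72.4% and 57.3% of all genes. Counts of calls and of groups without overlap were thus not far from those of all genes, and the sizes stood further from them. The median absolute change of the 10 genes on the log2 scale was 0.81 in FLM_G against BMM, 1.57 in FLM_G against FLM_M and 0.48 in FLM_M against BMM, and over all tested genes it was 0.39, 0.44 and 0.22 in the same order. Calls of at least 2-fold numbered 5, 6 and 2 of the 10 genes, against 18.8%, 21.4% and 7.03% of all genes. The 10 genes were chosen with earlier results of these data known, so these sizes are a description and not a test. Scaling bears on the small changes: without it the median gene of FLM_G moved by -0.34 against BMM and -0.39 against FLM_M on the log2 scale, and the 10 genes then split 3 higher and 5 lower in FLM_G against BMM.

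**Figure D1:**
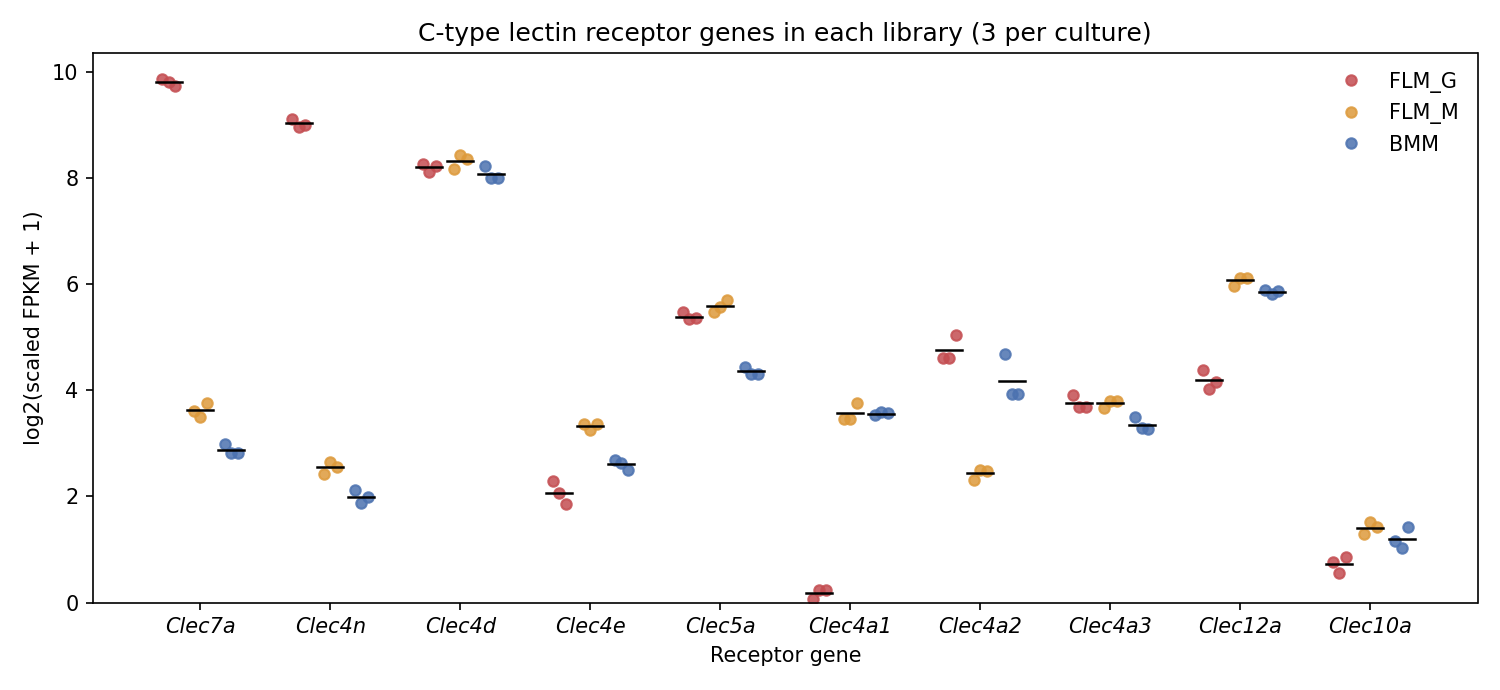
Level of each of the 10 receptor genes as log2(scaled FPKM + 1), with a point per library (3 per culture) and a bar at the mean of the points. Clec7a and Clec4n stand near 10 and 9 in FLM_G and below 4 in FLM_M and BMM, Clec4a1 is near 0 in FLM_G alone, and Clec4d is near 8 in all 9 libraries.

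Clec7a, the receptor for fungal beta-glucans, was the most abundant of the 10 genes in FLM_G. It stood at 935, 895 and 855 FPKM in the 3 FLM_G libraries, 11.3, 10.3 and 12.6 FPKM in FLM_M and 6.90, 6.05 and 6.07 FPKM in BMM. The groups did not overlap in any comparison, and each FLM_G library was far above the 6 others. The mean in FLM_G was 141-fold that of BMM (log2 change 6.93, SE 0.08, limma adjusted p = 2.55e-11) and 78.7-fold that of FLM_M (6.18, SE 0.08, adjusted p = 3.22e-11). FLM_M exceeded BMM 1.79-fold (0.75, SE 0.08, limma adjusted p = 7.11e-05). The change in FLM_G against BMM ranked 20th by size among the 11952 tested genes. A second row of the symbol Clec7a, whose identifier is not in the GENCODE M21 annotation, averaged 2.60 FPKM in FLM_G, 0.10 in FLM_M and 0.12 in BMM and was kept apart. GENCODE M21 gives the main Clec7a gene the biotype polymorphic pseudogene, at 129461591 to 129472779 on chromosome 6.

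Clec4n, whose product Dectin-2 binds fungal mannans, had the same pattern. Its levels were 557, 498 and 513 FPKM in FLM_G, 4.37, 5.28 and 4.91 FPKM in FLM_M and 3.35, 2.66 and 2.99 FPKM in BMM. Again no group overlapped another, and FLM_G alone was high. The mean in FLM_G was 174-fold that of BMM (log2 change 7.04, SE 0.08, limma adjusted p = 3.15e-11) and 108-fold that of FLM_M (6.48, SE 0.08, adjusted p = 3.4e-11). FLM_M exceeded BMM 1.62-fold (0.55, SE 0.08, limma adjusted p = 0.000728). Its change in FLM_G against BMM ranked 17th of all tested genes by size.

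Clec4d, the neighbour of Clec4n on chromosome 6 and encoding a receptor for mycobacterial glycolipid, was abundant in every culture. It stood at 308, 278 and 301 FPKM in FLM_G, 288, 348 and 327 FPKM in FLM_M and 299, 256 and 256 FPKM in BMM. The 3 groups overlapped one another in every pair. The difference was 0.13 on the log2 scale for FLM_G against BMM (95% interval -0.07 to 0.34, limma adjusted p = 0.218), and -0.12 for FLM_G against FLM_M (-0.32 to 0.09, adjusted p = 0.271). For FLM_M against BMM it was 0.25 (0.04 to 0.45, limma adjusted p = 0.0502), next to the threshold, and it was called without FLM_M replicate 1 (adjusted p = 0.016) or BMM replicate 1 (adjusted p = 0.0237) and with a filter of 5 FPKM (adjusted p = 0.0461). Without scaling, Clec4d was called in all 3 comparisons, at -0.29 for FLM_G against BMM, -0.60 for FLM_G against FLM_M and 0.31 for FLM_M against BMM.

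Clec4e encodes Mincle, the receptor for mycobacterial trehalose dimycolate, and stood at no more than 9.36 FPKM in any library. Its levels were 3.91, 3.17 and 2.65 FPKM in FLM_G, 9.34, 8.59 and 9.36 FPKM in FLM_M and 5.48, 5.21 and 4.68 FPKM in BMM. The order FLM_M, BMM, FLM_G had no overlap between neighbours. Clec4e was lower in FLM_G than in BMM (log2 change -0.54, SE 0.11, limma adjusted p = 0.0019) and than in FLM_M (-1.26, SE 0.11, adjusted p = 6.99e-06), and higher in FLM_M than in BMM (0.72, SE 0.11, adjusted p = 0.000639). Among the 3 receptors that pair with Fcer1g and lie within the same gene cluster, FLM_G against FLM_M thus gave a call upward for Clec4n, none for Clec4d and a call downward for Clec4e.

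Clec5a, whose product pairs with DAP12, was higher in both fetal liver cultures than in BMM. It stood at 43.3, 39.8 and 39.9 FPKM in FLM_G, 43.4, 46.8 and 51.3 FPKM in FLM_M and 20.8, 18.8 and 18.9 FPKM in BMM. Every fetal liver library lay above every BMM library, while the highest FLM_G library, at 43.3 FPKM, lay just below the lowest of FLM_M, at 43.4 FPKM. Clec5a rose 2.10-fold in FLM_G against BMM (log2 change 1.03, SE 0.07, limma adjusted p = 1.87e-06) and 2.42-fold in FLM_M against BMM (1.23, SE 0.07, adjusted p = 1.44e-06). The lower level in FLM_G than in FLM_M (-0.20, SE 0.07, limma adjusted p = 0.0343) was no longer called without FLM_M replicate 2 or 3 or FLM_G replicate 2 or 3, with adjusted p of 0.0539, 0.0985, 0.14 and 0.128. The sizes in FLM_G depend on the scaling. Without it the change was 0.62 against BMM (limma adjusted p = 5.72e-05) and -0.67 against FLM_M (limma adjusted p = 3.05e-05).

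**Figure D2:**
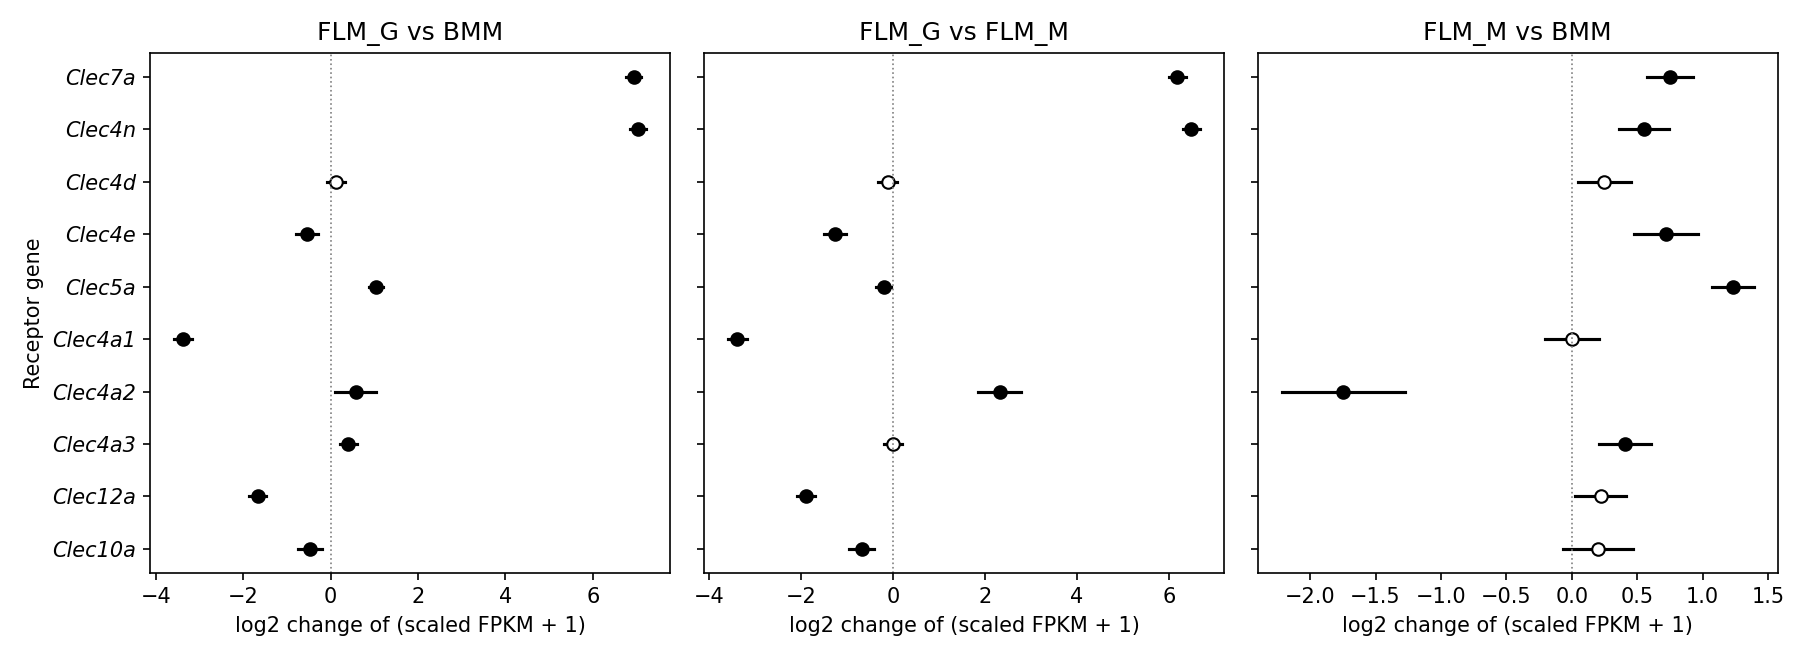
Change of each receptor gene as a difference of log2(scaled FPKM + 1) with its 95% interval, in the 3 comparisons. Filled points are called at an adjusted p under 0.05 and open points are not. The axes differ between panels: FLM_G against BMM reaches 7.04 (Clec4n), while FLM_M against BMM stays between -1.75 (Clec4a2) and 1.23 (Clec5a).

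Clec4a1, a relative of the inhibitory receptor DCIR, was near 0 in FLM_G alone. Its levels were 0.05, 0.18 and 0.18 FPKM in FLM_G, 10.1, 10.1 and 12.5 FPKM in FLM_M and 10.6, 11.0 and 10.8 FPKM in BMM. With its single annotated transcript of 1558 bases these stand for about 2, 7 and 7 reads in FLM_G, 626, 551 and 790 in FLM_M and 571, 588 and 636 in BMM. The ratio of the means was 0.0127 for FLM_G against BMM (log2 change -3.38, SE 0.09, limma adjusted p = 3.03e-09) and 0.0126 for FLM_G against FLM_M (-3.38, SE 0.09, adjusted p = 2.56e-09). FLM_M and BMM overlapped, with a difference of 0.00 on the log2 scale (95% interval -0.20 to 0.21, limma adjusted p = 0.992).

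Clec4a2, which encodes DCIR itself, was lowest in FLM_M. It stood at 23.5, 23.5 and 31.8 FPKM in FLM_G, 3.98, 4.67 and 4.58 FPKM in FLM_M and 24.7, 14.2 and 14.3 FPKM in BMM. BMM replicate 1 lay above the other BMM libraries and within the range of FLM_G. Clec4a2 was 5.96-fold higher in FLM_G than in FLM_M (log2 change 2.32, SE 0.21, limma adjusted p = 9.75e-06) and lower in FLM_M than in BMM (-1.75, SE 0.21, adjusted p = 0.00016). The call of FLM_G over BMM (0.58, SE 0.21, limma adjusted p = 0.0344) was lost without BMM replicate 2 (adjusted p = 0.12), BMM replicate 3 (0.12) or FLM_G replicate 3 (0.102) and without scaling (0.475). Of the 101-base windows of its transcripts, 2.11% also occur in Clec4a4, whose own level was uneven (0.00 to 1.82 FPKM among BMM libraries), so that a small part of its reads cannot be assigned with certainty.

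Clec4a3, another relative of DCIR, differed little. Its levels were 14.1, 11.9 and 11.8 FPKM in FLM_G, 11.8, 12.9 and 13.0 FPKM in FLM_M and 10.3, 8.83 and 8.66 FPKM in BMM. Both fetal liver cultures lay above BMM in every library and overlapped each other. The change was 0.41 for FLM_G against BMM (SE 0.09, limma adjusted p = 0.0029), 0.40 for FLM_M against BMM (SE 0.09, adjusted p = 0.00521) and 0.00 for FLM_G against FLM_M (95% interval -0.20 to 0.20, adjusted p = 0.986). The FLM_G values depend on the scaling: without it the change was 0.02 against BMM (adjusted p = 0.862) and -0.45 against FLM_M (adjusted p = 0.00171).

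Clec12a, the inhibitory receptor known to bind uric acid crystals, was lower in FLM_G. It stood at 19.8, 15.4 and 16.9 FPKM in FLM_G, 61.9, 68.8 and 68.7 FPKM in FLM_M and 58.2, 55.0 and 57.3 FPKM in BMM. Every FLM_G library was below the 6 others. The ratio of the means was 0.305 for FLM_G against BMM (log2 change -1.67, SE 0.09, limma adjusted p = 2.66e-07) and 0.261 for FLM_G against FLM_M (-1.89, SE 0.09, adjusted p = 1e-07). FLM_M and BMM did not overlap but their difference of 0.22 (SE 0.09) was not called (limma adjusted p = 0.0671). It was called without FLM_M replicate 1 (0.0451), FLM_G replicate 1 (0.0177) or FLM_G replicate 2 (0.0419) and without scaling (0.0284).

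Clec10a, which encodes the galactose-binding receptor MGL1, was the lowest of the 10 genes in FLM_M and BMM. Its levels were 0.71, 0.48 and 0.81 FPKM in FLM_G, 1.45, 1.86 and 1.67 FPKM in FLM_M and 1.24, 1.04 and 1.69 FPKM in BMM. FLM_G lay below the 6 other libraries, and FLM_M and BMM overlapped. The change was -0.48 for FLM_G against BMM (SE 0.12, limma adjusted p = 0.00631), -0.68 for FLM_G against FLM_M (SE 0.12, adjusted p = 0.000778) and 0.20 for FLM_M against BMM (95% interval -0.07 to 0.47, adjusted p = 0.203). Of its 101-base windows, 2.58% also occur in Mgl2. None of the other 8 receptor genes shared such a window with another gene, and no annotated gene on the opposite strand overlapped any of the 10. On the same strand 1 annotated gene, Gm44132, overlapped Clec4a2, and none overlapped the other receptor genes.

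Added up, the 10 genes reached 1904, 1766 and 1772 FPKM in FLM_G, 446, 517 and 505 FPKM in FLM_M and 441, 379 and 381 FPKM in BMM. FLM_G stood far apart, and the lowest FLM_M library lay just above the highest BMM library. In FLM_G the sum was 49.3% ± 1.2 Clec7a, 28.8% ± 0.5 Clec4n and 16.3% ± 0.6 Clec4d (SD, n = 3). In FLM_M it was 65.5% ± 1.5 Clec4d, 13.6% ± 0.3 Clec12a and 9.65% ± 0.55 Clec5a (SD, n = 3), and in BMM 67.5% ± 0.4 Clec4d, 14.3% ± 0.9 Clec12a and 4.88% ± 0.15 Clec5a (SD, n = 3). By level among the 11952 tested genes, Clec7a, Clec4n and Clec4d ranked 75th, 112th and 190th in FLM_G. Clec4d ranked 114th in FLM_M and 159th in BMM, where Clec7a ranked 4261st (FLM_M) and 6181st (BMM).

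**Figure D3:**
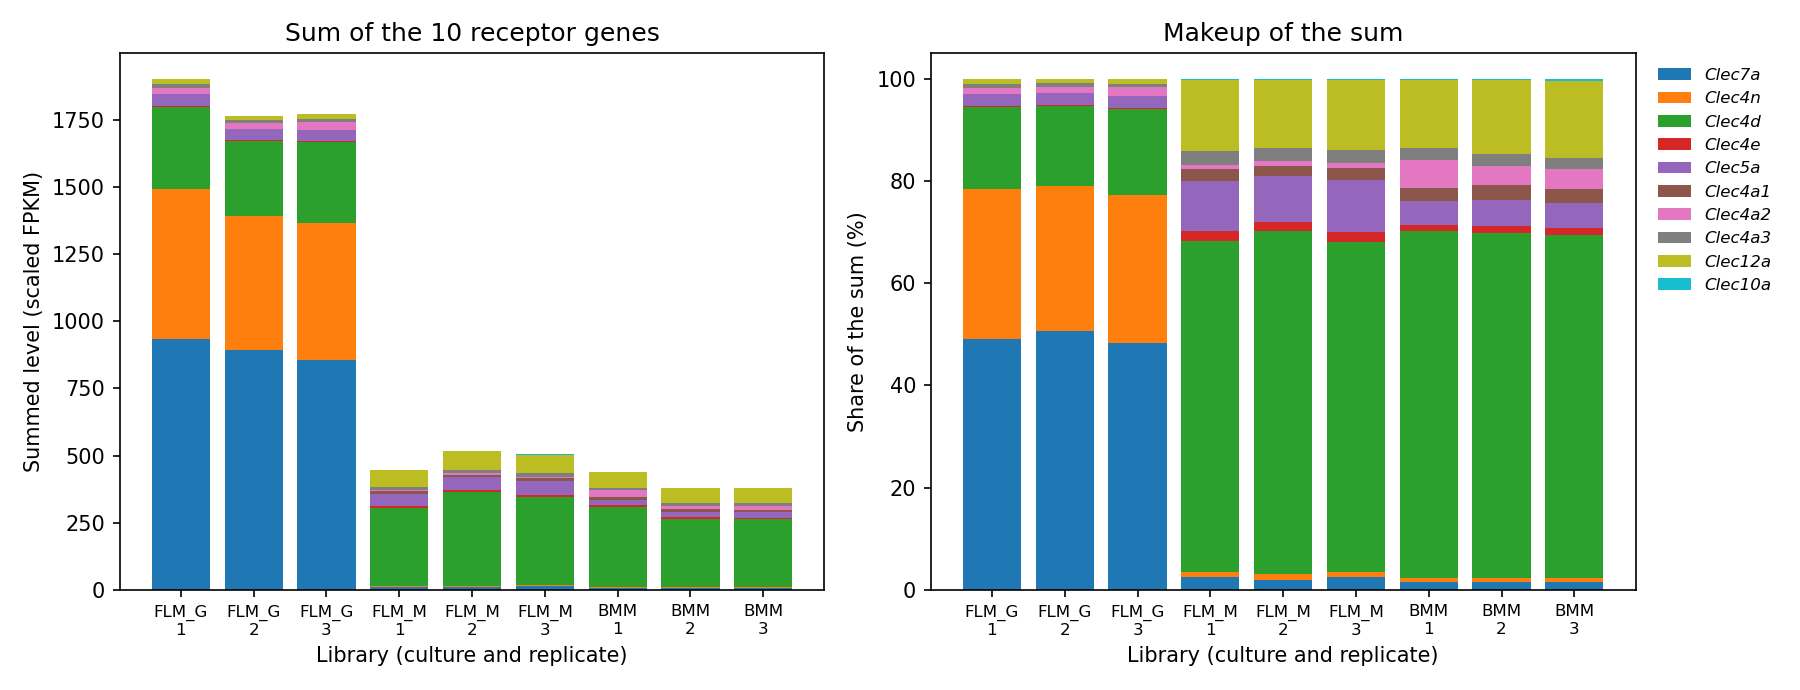
Sum of the 10 receptor genes in scaled FPKM (left) and the share of each gene in that sum in percent (right), for each of the 9 libraries. The FLM_G bars reach 1766 to 1904 FPKM and are mostly Clec7a and Clec4n, while the FLM_M and BMM bars lie between 379 and 517 FPKM and are mostly Clec4d.

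On chromosome 6 the receptor genes fall into 2 clusters and 1 single gene, Clec5a. In both clusters only protein-coding genes and polymorphic pseudogenes of the annotation were counted. The first cluster runs over 368 kb from Clec4a1 to Clec4e and holds 9 such genes, 6 of them among the 10. In order they are Clec4a1, Clec4a3, Clec4a4, Clec4b1, Clec4a2, Clec4b2, Clec4n, Clec4d and Clec4e. Genes of this cluster did not change alike: Clec4a1 was lower in FLM_G than in the other cultures, Clec4b1 stood at 11.6 FPKM in FLM_G, 0.21 in FLM_M and 1.43 in BMM, and Clec4d next to Clec4n was not called. The second cluster runs over 164 kb from Clec12a to Olr1 and holds 7 genes, 2 of them among the 10. Clec7a lies between Clec1a, at no more than 0.14 FPKM in any library, and Olr1, which encodes the oxidised LDL receptor LOX-1. Olr1 averaged 39.8 FPKM in FLM_G, was listed at 0 in all FLM_M libraries and averaged 0.11 FPKM in BMM. Clec1b stood at 6.73 FPKM in FLM_G, 0.47 in FLM_M and 0.11 in BMM, and Clec9a, whose annotated start overlaps the end of Clec1b on the same strand, at 2.45, 0.11 and 0.05 FPKM. Clec12a, at the other end of the cluster, was lower in FLM_G, and Clec12b next to it was listed at 0 in all 9 libraries.

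**Figure D4:**
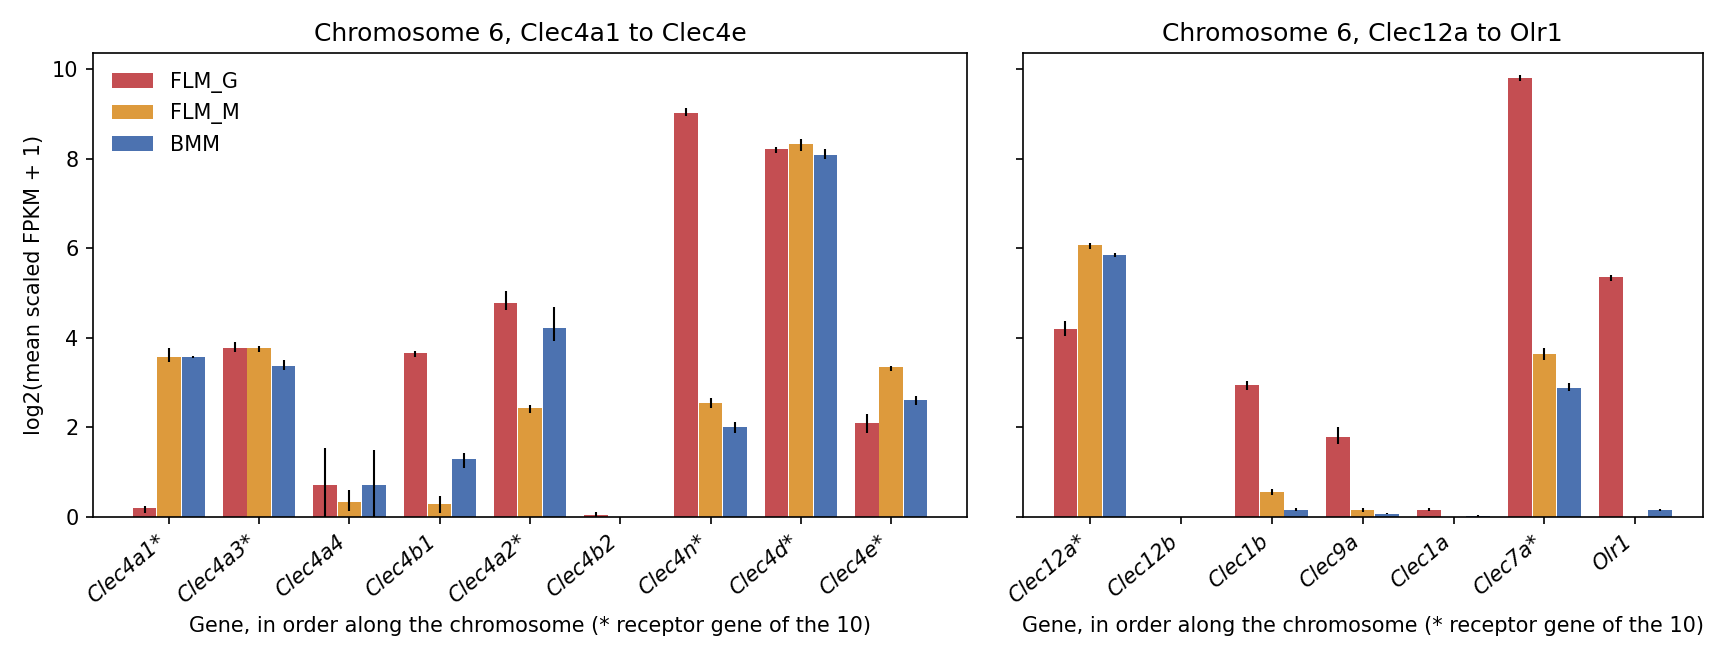
Protein-coding genes and polymorphic pseudogenes of the 2 clusters on chromosome 6 in their order along the chromosome. Bars show log2(mean scaled FPKM + 1), and lines run from the lowest to the highest of the 3 libraries. Stars mark the receptor genes among the 10. Genes high in FLM_G (Clec4n, Clec7a, Olr1) share a cluster with a gene low in FLM_G (Clec4a1 or Clec12a) that is not next to them. Clec4n lies next to Clec4d, which is near 8 in all cultures.

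For each receptor gene with a call of at least 2-fold, the 2 tested genes of most similar pattern over the 9 libraries were taken. They were those with the smallest root-mean-square difference of centred log2(scaled FPKM + 1). Only genes with an assigned symbol were searched, without those named by Gm numbers, Rik clones or Ensembl identifiers. The 9 libraries share 3 cultures, so these values mostly compare 3 levels. Clec4n was the nearest gene to Clec7a and Clec7a the nearest to Clec4n (difference 0.16, Pearson r 0.999). Next came Atp6v0d2 for Clec7a (0.28), at 954 FPKM in FLM_G, 15.8 in FLM_M and 5.32 in BMM, and Wfdc21 for Clec4n (0.25), at 99.3 FPKM in FLM_G and listed at 0 in FLM_M and BMM. Smagp (0.10) and Nanos1 (0.14) were nearest to Clec4a1, Inppl1 (0.07) and Otud1 (0.08) to Clec12a, and Filip1l (0.07) and Abhd17c (0.12) to Clec5a. For Clec4e they were Map2k6 (0.09) and Cep83 (0.09), and for Clec4a2 Fabp7 (0.23) and Aldh1b1 (0.23).

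The receptors signal through a shared set of adaptors, kinases and phosphatases, of which 31 of 32 listed genes were tested (Src was not). In FLM_G against BMM, 12 were called higher and 14 lower, against 33.8% and 34.1% of all genes, and 5 were not called. In FLM_G against FLM_M, 13 were higher and 12 lower, against 35.5% and 35.1% of all genes, and without scaling the split was 9 higher and 16 lower. In FLM_M against BMM, 6 were higher and 9 lower, against 22.7% and 21.9%. The list moved in both directions in each comparison.

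The 2 main adaptors went opposite ways in FLM_G. Fcer1g, the adaptor of Dectin-2, MCL and Mincle, averaged 501 ± 50.1 FPKM in FLM_G, 1036 ± 102 in FLM_M and 811 ± 44.3 in BMM (SD, n = 3 each). It was lower in FLM_G than in BMM (log2 change -0.70, SE 0.09, limma adjusted p = 0.000188) and than in FLM_M (-1.05, SE 0.09, adjusted p = 1.1e-05). Its rise in FLM_M against BMM (0.35, SE 0.09, limma adjusted p = 0.016) was lost without BMM replicate 1 (0.0613). Tyrobp, which encodes DAP12, averaged 2408 ± 196 FPKM in FLM_G, 1037 ± 95.6 in FLM_M and 914 ± 7.97 in BMM (SD, n = 3 each), and was 2.63-fold higher in FLM_G than in BMM (1.39, SE 0.08, limma adjusted p = 7.76e-07). The DAP10 gene Hcst averaged 19.1 FPKM in FLM_G, 8.85 in FLM_M and 6.96 in BMM, and was 2.74-fold higher in FLM_G than in BMM (limma adjusted p = 4.68e-06). In FLM_M against BMM Tyrobp was not called (0.18, limma adjusted p = 0.12) but was so without scaling (0.0328), and Hcst was called (0.31, adjusted p = 0.0404) but not without any single one of the BMM or FLM_M libraries (0.0581 to 0.117).

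Syk and 2 of the 3 genes of the complex below it were highest in FLM_G. Syk stood at 67.0 ± 1.69 FPKM in FLM_G, 14.3 ± 1.54 in FLM_M and 21.4 ± 0.07 in BMM (SD, n = 3 each), with no overlap between any of the 3. It was 3.13-fold higher in FLM_G than in BMM (log2 change 1.60, SE 0.07, limma adjusted p = 7.75e-08), 4.69-fold higher than in FLM_M (2.16, SE 0.07, adjusted p = 9.16e-09), and lower in FLM_M than in BMM (-0.56, SE 0.07, adjusted p = 0.000213). Card9 averaged 42.8 FPKM in FLM_G, 21.6 in FLM_M and 24.1 in BMM, a 1.78-fold rise in FLM_G against BMM (limma adjusted p = 0.00041). Malt1 averaged 18.2 FPKM in FLM_G, 6.46 in FLM_M and 5.53 in BMM, a 3.30-fold rise in FLM_G against BMM (limma adjusted p = 1.79e-07). Bcl10 was slightly lower in FLM_G, at 8.65 FPKM against 9.68 in FLM_M and 9.89 in BMM (log2 change -0.17 against BMM, limma adjusted p = 0.0124, lost at 0.0502 without FLM_G replicate 3). Its call against FLM_M (-0.15, limma adjusted p = 0.026) was lost without any single FLM_G library or without FLM_M replicate 1 or 3 (adjusted p at most 0.0958). In FLM_M against BMM neither Card9 (-0.14, limma adjusted p = 0.388), Malt1 (0.19, adjusted p = 0.0745) nor Bcl10 (-0.03, adjusted p = 0.682) was called, and Malt1 was so without scaling (0.0339), without FLM_M replicate 2 (0.0367) or without FLM_G replicate 3 (0.0481).

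Among the kinases near the receptors, Fgr, of the Src family, averaged 51.0 FPKM in FLM_G, 0.01 in FLM_M and 1.87 in BMM, and was 27.2-fold higher in FLM_G than in BMM (log2 change 4.18, SE 0.06, limma adjusted p = 7.9e-11). Btk averaged 48.4 FPKM in FLM_G, 23.6 in FLM_M and 30.4 in BMM, and was lower in FLM_M than in BMM (-0.36, limma adjusted p = 0.00922). Plcg2, the phospholipase that Syk signalling activates, was lower in FLM_G, at 37.6 FPKM against 50.4 in FLM_M and 54.6 in BMM (-0.52 against BMM, limma adjusted p = 6.97e-06).

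The phosphatases were unlike each other. Ptpn6 (SHP-1), which binds the inhibitory motif, averaged 94.3 FPKM in FLM_G, 91.5 in FLM_M and 74.7 in BMM and was not called in any comparison on the FPKM (limma adjusted p of 0.0526 for FLM_G against BMM, 0.812 for FLM_G against FLM_M and 0.107 for FLM_M against BMM). Without BMM replicate 2, Ptpn6 was called in FLM_G against BMM (0.00853) and in FLM_M against BMM (0.0209), and without FLM_G replicate 2 in FLM_G against BMM (0.0258). With a filter of 5 FPKM its adjusted p in FLM_G against BMM was 0.0488. On the count table, whose strand is in doubt, Ptpn6 was called higher in FLM_G than in BMM by both edgeR (log2 change 0.82, adjusted p = 0.00925) and DESeq2 (0.77, adjusted p = 0.00893). Ptpn11 (SHP-2) averaged 10.7 FPKM in FLM_G, 9.35 in FLM_M and 10.8 in BMM, with no call in any comparison (limma adjusted p of 0.923, 0.0875 and 0.102 in the same order), and was called against FLM_M (0.00916) and in FLM_M against BMM (0.0128) without FLM_M replicate 1. Without scaling Ptpn11 and Ptpn6 were called lower in FLM_G than in FLM_M, at -0.26 and -0.44 on the log2 scale, and Ptpn11 was also called lower in FLM_G than in BMM (-0.40, adjusted p = 0.00306). The lipid phosphatase Inpp5d (SHIP-1) averaged 17.2 FPKM in FLM_G, 32.1 in FLM_M and 44.4 in BMM, with no overlap, and was lower in FLM_G than in BMM (log2 change -1.32, SE 0.07, limma adjusted p = 2.6e-07). Its relative Inppl1 (SHIP-2) averaged 8.09 FPKM in FLM_G, 33.5 in FLM_M and 29.4 in BMM (-1.74 against BMM, limma adjusted p = 2.88e-08). Ptpn22 averaged 0.31 FPKM in FLM_G, 2.17 in FLM_M and 5.01 in BMM, with the largest decrease of the list in FLM_G against BMM (-2.19, SE 0.05, limma adjusted p = 1.23e-09). Nfatc2, a transcription factor that the pathway activates, averaged 1.76 FPKM in FLM_G, 4.03 in FLM_M and 6.52 in BMM, and the exchange factor Vav3 1.52, 6.34 and 6.24 FPKM. Nfatc2 was lower in FLM_M than in BMM (-0.58, limma adjusted p = 0.000535), and Vav3 was lower in FLM_G than in FLM_M (-1.54, adjusted p = 8.21e-06).

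**Figure D5:**
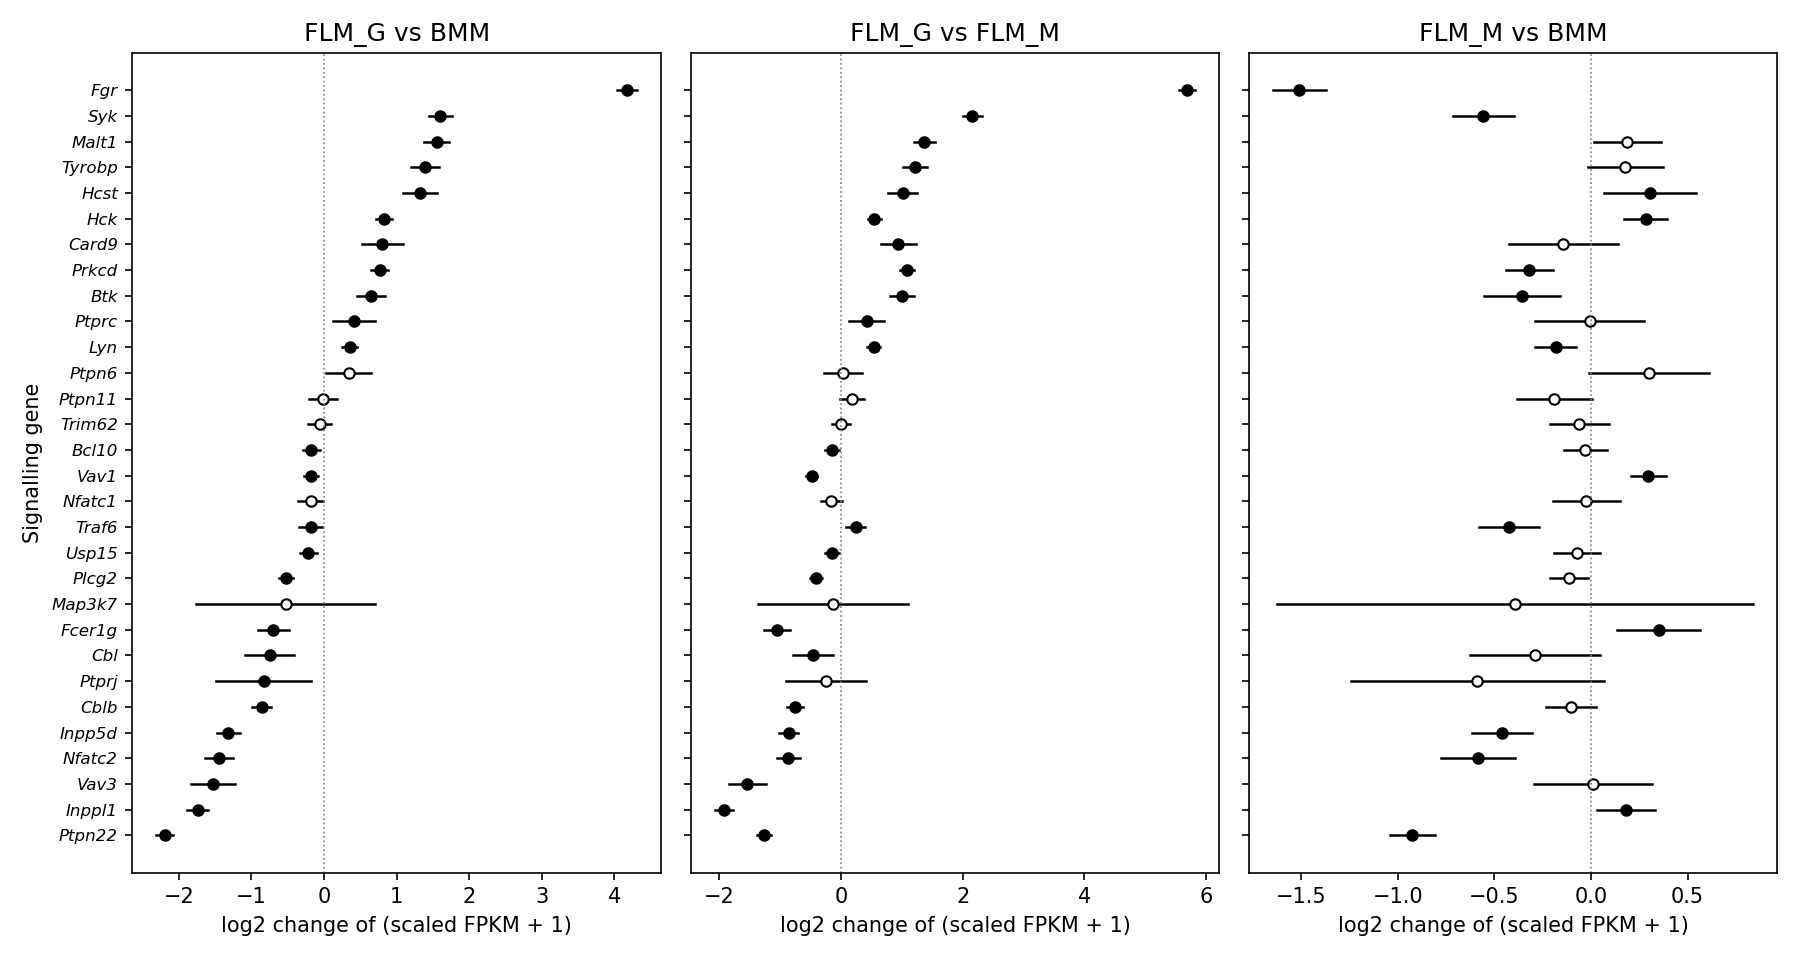
Change of the tested signalling genes reported here as a difference of log2(scaled FPKM + 1) with its 95% interval, ordered by FLM_G against BMM. Filled points are called at an adjusted p under 0.05. Axes differ between panels: Fgr reaches 4.18 in FLM_G against BMM and lies at -1.51 in FLM_M against BMM, and Ptpn22 lies at -2.19 and -0.92.

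Most other C-type lectin genes did not pass the filter. Of 46 listed, 45 were in the table and 16 were tested, of which 5 (Clec1b, Clec9a, Klra17, Ly75 and Olr1) had at least 1 FPKM in FLM_G only and 1 (Cd69) in FLM_M only, so that these 6 had to differ. The calls were 11 higher and 3 lower in FLM_G against BMM, 12 higher and 4 lower in FLM_G against FLM_M and 8 higher and 4 lower in FLM_M against BMM, counts that the filter fixes in part. Of all tested genes, 33.8% were higher and 34.1% lower in the first comparison, 35.5% and 35.1% in the second and 22.7% and 21.9% in the third. The 10 genes that passed through more than 1 culture hold the macrophage mannose receptor Mrc1, at 232 FPKM in FLM_G, 87.0 in FLM_M and 44.7 in BMM, and Cd302, at 163 FPKM in FLM_G, 24.3 in FLM_M and 24.1 in BMM. Among these 10 the largest changes in FLM_M against BMM were those of the scavenger receptor Colec12, at 223 FPKM in FLM_M against 14.1 in BMM (log2 change 3.89, SE 0.06, limma adjusted p = 6.54e-10), and of Cd207 (langerin), at 27.3 FPKM in FLM_M against 4.97 in BMM (2.25, SE 0.07, adjusted p = 4.03e-08). Clec2d (27 FPKM in FLM_M, 7.03 in BMM) was also higher, at 1.79 on the log2 scale (limma adjusted p = 2.13e-06). Clec2d was higher still in FLM_G, at 53.6 FPKM. Colec12 was also called higher in FLM_G than in BMM (2.23) and lower in FLM_G than in FLM_M (-1.67). Cd69, one of the 6 genes that had to differ, averaged 9.50 FPKM in FLM_M and 0.61 in BMM. Cd207 was listed at 0 in all FLM_G libraries. Cd72, best known as an inhibitory lectin of B cells, averaged 0.19 FPKM in FLM_G, 47.9 in FLM_M and 21.2 in BMM (-4.23 for FLM_G against BMM, SE 0.06, limma adjusted p = 1.03e-10, and 1.14 for FLM_M against BMM, adjusted p = 1.24e-06). Cd93 was at 81.1 FPKM in FLM_G and 81.4 in BMM but at 28.3 FPKM in FLM_M (-1.49 for FLM_M against BMM, SE 0.06, limma adjusted p = 9.36e-08). Ly75 (DEC-205) averaged 33.7 FPKM in FLM_G and 0.04 in BMM, and Klra17 15.6 FPKM in FLM_G, and both were listed at 0 in all FLM_M libraries, Klra17 also in BMM.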

How the data were processed

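Per the labels' protocols, stranded mRNA libraries (TruSeq) were sequenced single-end over 101 cycles, all in 1 HiSeq2500 lane. The submitters' processing notes name HISAT2, StringTie, DESeq2, cutadapt, FastQC and bcl2fastq, and as builds GRCm38 and mm10. Their versions, and which tool made which table, are not given in the sources used here. The authors deposited a table of FPKM and a table of raw counts per gene. The counts summed to 782400 to 1170813 per library, far under the depth read from the FPKM. In Clec4a1 they were 0 to 4 in the FLM_M and BMM libraries, where the FPKM stood for 551 to 790 reads. An earlier analysis of the same data had found that the counts followed the opposite strand, which was not tested again here. FPKM is therefore the measure, and the counts serve only as an alternative whose strand is in doubt.

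FPKM were scaled by unweighted TMM factors (edgeR 4.0.16, 0.80 to 1.14), and the genes that reached 1 FPKM in 3 or more libraries were tested on log2(scaled FPKM + 1) with limma 3.58.1 (trend, two-sided) in R 4.3.3, with a mean per group over 9 libraries and 6 residual degrees of freedom. The step was tested on simulated data. Alternatives were a block for the replicate number, a fit to only the 6 libraries compared, RLE scaling or none, a filter of 5 FPKM or none, a pseudocount of 0.1, each library left out, and DESeq2 1.42.0 or edgeR on the counts. Of the 46078 identifiers, 45143 were found in GENCODE M21 (GRCm38), which gave positions.

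The 10 members, the gene lists and the tests were chosen with earlier results of these data known. All 10 members are named. From the signalling list 11 genes are named by name, and per comparison up to 4 further called genes of largest change with at least 5 FPKM in the higher group and no overlap. A gene of that list that the rule names is not reported here and is left out of the plot, though the list's counts include it. From the other lectins up to 6 are named by the same rule. The neighbours of the 2 clusters, Mrc1, Cd302 and the marker and sex-linked genes were named after their values were seen.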

Additional observations from a re-analysis of the deposited data

How the results depend on the processing

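A change of sign was counted as a turn only where the main fit or the alternative called the gene. So counted, 193 of 207 values of the 10 receptor genes stayed the same across the alternatives on the FPKM. Of the rest, 5 gained a call, 7 lost one and 2 turned round. With each library left out 258 of 270 stayed the same, with 5 gained, 7 lost and none turned round. Uncalled values near 0 could change sign, such as Clec4a3 in FLM_G against FLM_M (-0.05 to 0.06 with a library left out). Without scaling, Clec4a3 in FLM_G against FLM_M went to -0.45, Clec4d in FLM_G against BMM to -0.29, and in FLM_G against FLM_M Ptpn11 went to -0.26 and Ptpn6 to -0.44. The split of all called genes was then 2081 higher and 6775 lower in FLM_G against BMM, against 4044 and 4081 with scaling, and 2218 and 7075 in FLM_G against FLM_M, against 4246 and 4195. On the count table, edgeR called 2458 genes in FLM_G against BMM, 2855 in FLM_G against FLM_M and 1300 in FLM_M against BMM, of 7490 tested. In the same order DESeq2 called 2210 of 12694, 2638 of 13019 and 844 of 12370, and limma 8125, 8441 and 5329 of 11952. Receptor genes called, in that order, were 5, 5 and 5 of 7 tested with edgeR and 4, 5 and 1 of 8 tested with DESeq2. With limma they were 9, 8 and 6 of 10. In FLM_M against BMM edgeR shared 3 of the 6 limma calls, with Clec4a2 (adjusted p 0.0964) and Clec7a (0.605) no longer called, Clec4a3 not tested, and Clec12a (0.0407) and Clec4d (0.0470) called. Signalling genes called were 13, 12 and 2 of 23 tested with edgeR and 10, 10 and 1 of 31 with DESeq2, against 26, 25 and 15 of 31 with limma. Other lectin genes called were 5, 7 and 4 of 7 tested with edgeR and 10, 13 and 3 of 17 with DESeq2, against 14, 16 and 12 of 16 with limma. Leaving out FLM_G replicate 2 or 3 left 9 other lectin genes called in FLM_G against BMM (range 9 to 14), since genes passing the filter in FLM_G alone then dropped out. The counts hold few reads of these genes and their strand is in doubt. On them Clec5a in FLM_G against FLM_M went to 0.012 with DESeq2, Cd72 in FLM_M against BMM to -0.49 with edgeR and -0.58 with DESeq2, Inppl1 to -0.10 and -0.19, and Nfatc2 to 0.11 with DESeq2. The cause of these differences was not tested. Same-numbered libraries correlated at -0.08 to 0.09 in their deviations from the group means, and others at -0.10 to 0.07. In FLM_G against BMM alone, same-numbered pairs stood at 0.05 to 0.09 and the others at -0.05 to -0.02. These weak values do not settle whether replicate numbers pair the samples. The replicate block left 6 receptor genes called in FLM_M against BMM, 8 in FLM_G against BMM and 7 in FLM_G against FLM_M, and, in the same order, 5140, 8018 and 8386 of all genes. Under the block Clec4a2 in FLM_G against BMM (adjusted p 0.0577) and Clec5a in FLM_G against FLM_M (0.0604) were no longer called, nor were they in a fit to the 6 libraries compared (0.0673 and 0.0552), where Clec12a in FLM_M against BMM was (0.0225). Depth limits Clec4a1 in FLM_G, Clec10a and the genes listed at 0.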
